A study of Mus musculus with 1 sample.

Results

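The clustered replication-dependent histone genes are the 67 protein-coding genes whose GENCODE M21 symbol begins with Hist1h, Hist2h, Hist3h or Hist4h, among 54532 genes in the table. They were joined by Ensembl identifier, and those listed at 0 were kept. They comprised 6 H1, 18 H2A, 18 H2B, 12 H3 and 13 H4 genes. The RNA came from c-kit+ bone marrow (BM) cells of wild-type C57BL/6 mice, the Ctrl group of a study of Gadd45g-deficient mice that develop a myeloproliferative neoplasm (MPN). The cells were sorted by FACS, and the label gives the gate as Lin-, cKit+ and Sca1-. The sources used here give neither the number of mice pooled nor their age. Only the Ctrl library was described, without a test between groups, and that of the diseased mice was not analysed here.

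Core histones H2A, H2B, H3 and H4 form the protein spool of the nucleosome, and the linker histone H1 binds the DNA where it enters and leaves. The clustered genes are transcribed mainly in S phase, when newly made DNA has to be packaged. Their mRNAs usually have no introns and no poly(A) tail, and end at a conserved stem-loop that is bound by the protein Slbp and cut with the help of U7 snRNA. Some of these genes can also give polyadenylated mRNA from a signal farther downstream, for example in cells that have left the cell cycle. Most replacement histone genes lie outside the clusters, have poly(A) tails and are not limited to S phase.

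The stem-loop letters were searched in the 300 bases after the stop codon of each annotated transcript, with 1 letter allowed to differ from the histone stem-loop consensus. Of 52 clustered genes with at least 16 annotated bases there, 46 (88.5%) held them, against 64 of 20894 other protein-coding genes (0.306%). The other 15 clustered genes had fewer than 16 annotated bases after the stop codon, so the region was cut short in the annotation. The stem-loops of 5 genes are shown because 4 of them had among the highest levels and because stems and loops differ between genes. The stem of the H4 genes shown differs from that of the other genes shown, and is not that of every H4 gene. Hist1h1c and Hist3h2ba are identical here. The loop is in capitals, and all are read 5′ to 3′ on the mRNA strand from GENCODE M21 (GRCm38). They lie at chr13:23739512-23739527 (plus strand, Hist1h1c), chr11:58949349-58949364 (plus, Hist3h2ba), chr13:22040966-22040981 (minus, Hist1h4i), chr13:21812129-21812144 (plus, Hist1h4m) and chr13:23745047-23745062 (minus, Hist1h3c).
Hist1h1c: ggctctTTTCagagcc
Hist3h2ba: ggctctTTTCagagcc
Hist1h4i: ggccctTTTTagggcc
Hist1h4m: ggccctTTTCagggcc
Hist1h3c: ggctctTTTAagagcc

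The polyadenylation signal AATAAA lay in the last 60 bases of an annotated transcript for 14 clustered genes. Among genes with at least 16 bases after the stop codon this was 26.9% of the clustered genes and 68.7% of the other protein-coding genes. The ends of 4 such transcripts are shown, with the signal in capitals, because they carry a second possible end beyond the stem-loop or, in Hist2h2be, an end with no stem-loop letters in the 300 bases searched. They lie at chr13:23740330-23740359 (plus strand, Hist1h1c), chr11:58949495-58949524 (plus, Hist3h2ba), chr3:96223705-96223734 (plus, Hist2h2be) and chr13:23570527-23570556 (minus, Hist1h2ae) in GRCm38. In Hist1h1c the annotated transcript ran 840 bases past the stem-loop, in Hist3h2ba 169 and in Hist1h2ae 151.
Hist1h1c: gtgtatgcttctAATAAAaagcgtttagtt
Hist3h2ba: cataatggtattAATAAAtttggttcaatt
Hist2h2be: gttattattattAATAAAgttaccgattag
Hist1h2ae: cccagcttctccAATAAAtgggtcaatttt

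Values are FPKM, the fragments on a gene divided by the length of its exons and by the total of the library. The FPKM values could be turned back into whole fragments for all 67 genes. The library held 17113323 recovered fragments over all genes, and 4588 of them (0.0268%) lay on the clustered histone genes. Markers of mature cells were abundant beside those of progenitors. Kit itself was at 7.17 FPKM and Cd34 at 5.22 FPKM, 4 of 4 progenitor markers spanned 5.22 to 781 FPKM, 5 of 5 neutrophil markers 2069 to 26677 FPKM, 4 of 4 erythroid markers 1037 to 25466 FPKM, 4 of 4 B cell markers 47.2 to 4323 FPKM and 3 of 3 T cell markers 2.62 to 8.55 FPKM. No marker in these lists was at 0. In bulk RNA, fewer cells of a type and less RNA per cell cannot be told apart, and the part of these cells in the histone levels was not tested.

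The clustered histone genes were detected about as often as other protein-coding genes, and few were high. At 1 FPKM or more stood 33 of 67 genes, or 49.3%, near the 46.8% of all 21995 protein-coding genes. At 10 FPKM or more stood 5 genes, while 21.2% of all protein-coding genes did. Listed at 0 were 10 genes, against 32.4% of all protein-coding genes. The median was 0.974 FPKM, beside 0.5997 FPKM over all protein-coding genes. Without division by length the order turned, with a median of 15 fragments on the clustered genes and 35 on all protein-coding genes. The clustered genes together reached 267.79 FPKM (0.0625% of the summed FPKM of all genes). Fewer than 10 fragments lay on 28 of the 67 genes, so their order was poorly resolved.

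The 6 highest genes held 69.9% of the summed FPKM of the clustered genes, and they came from H1, H2B and H4. Hist1h1c (ENSMUSG00000036181), a somatic linker histone gene, stood at 81.7 FPKM with 2012 fragments (95% Wilson interval 78.2 to 85.4 FPKM, counting error only). Hist1h4i (ENSMUSG00000060639), an H4 gene, followed at 36.3 FPKM with 416 fragments (32.9 to 39.9 FPKM). The H2B gene Hist1h2bc (ENSMUSG00000018102) stood at 24.8 FPKM with 453 fragments (22.6 to 27.2 FPKM). These intervals did not overlap, so counting error alone did not blur the order in FPKM. Hist1h1c also had the most fragments. Hist1h2bc had more fragments than Hist1h4i, over 1156 exon bases against 727, so the order of that pair depended on the annotated lengths.

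Below them came 3 more H2B genes. Hist3h2ba (ENSMUSG00000056895) stood at 20.1 FPKM with 195 fragments (17.5 to 23.2 FPKM) and Hist1h2bg (ENSMUSG00000058385) at 17.0 FPKM with 166 fragments (14.6 to 19.8 FPKM), with intervals that overlapped each other. The interval of Hist3h2ba also reached into that of Hist1h2bc. Hist2h2be (ENSMUSG00000068854) stood at 7.30 FPKM, with 302 fragments over a long exon (6.52 to 8.17 FPKM). The next gene, Hist1h4m at 5.67 FPKM, had an interval (4.10 to 7.85 FPKM) that overlapped that of Hist2h2be. Hist1h1c was 83.9 times the median clustered gene, and 577 protein-coding genes (2.62%) stood at or above it.

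**Figure D1:**
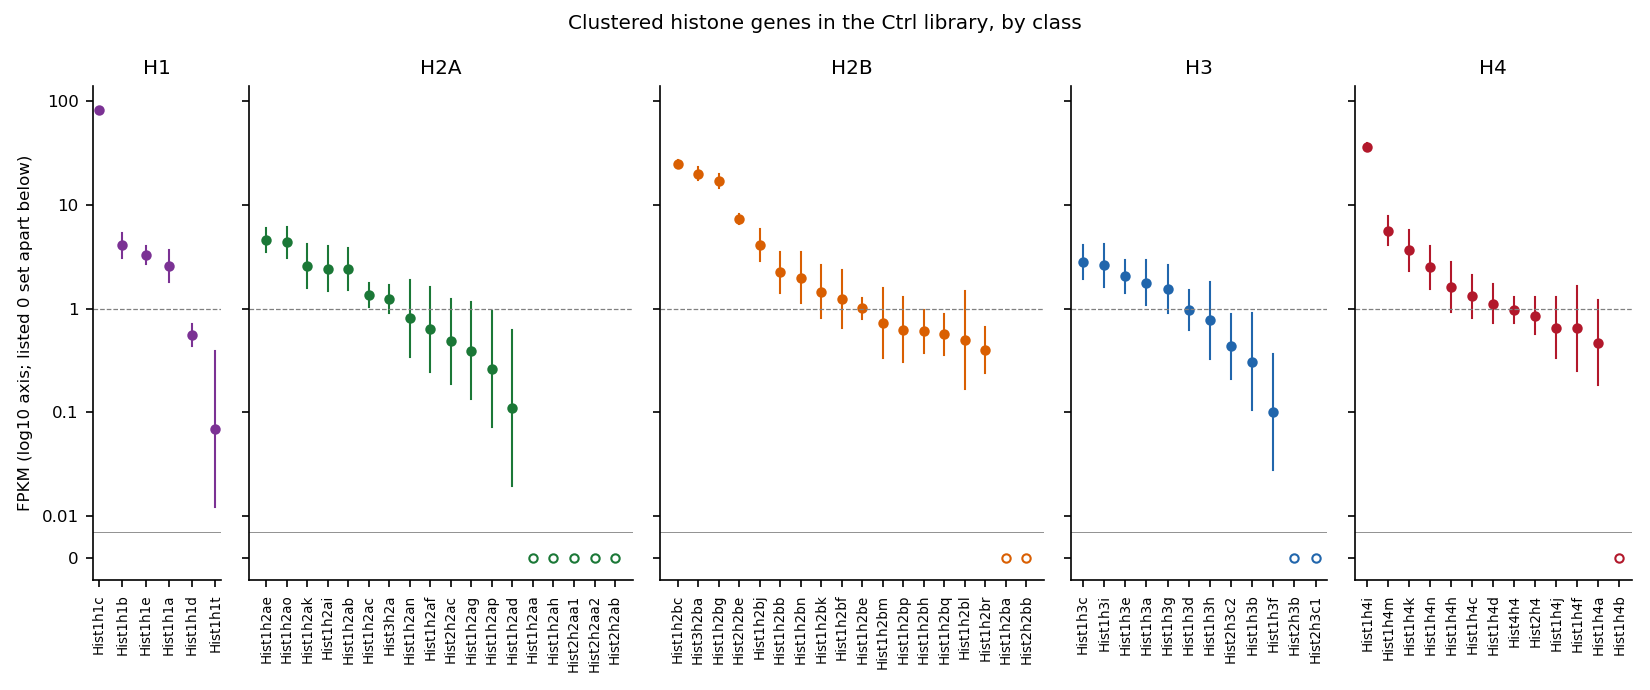
FPKM (log10 axis) of each of the 67 clustered histone genes in the 1 Ctrl library, ordered within each class, with vertical lines for 95% Wilson intervals of the fragments (counting error only). Open points below the grey line are genes listed at 0, and the dashed line is 1 FPKM. Hist1h1c at 81.7 FPKM and Hist1h4i at 36.3 FPKM stand apart from the rest of their classes, H2B has 4 genes from 7.30 to 24.8 FPKM, and no H2A or H3 gene is above 4.59 FPKM.

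H1 proteins compact linker DNA, and unlike the core histones each of the 6 clustered genes encoded a different protein, with 56.5% to 87.3% identical residues between pairs on translation of the GENCODE coding sequences. Hist1h1c alone held 88.6% of the FPKM of H1 and was 19.96 times Hist1h1b, the next gene, at 4.09 FPKM (48 fragments). Hist1h1e stood at 3.28 FPKM (100 fragments) and Hist1h1a at 2.57 FPKM (30 fragments). The intervals of these neighbours overlapped, while those of the other 3 of the 5 neighbouring pairs did not. Hist1h1d stood at 0.555 FPKM, from 65 fragments divided by 7425 annotated exon bases, of which 666 are coding. Hist1h1t, the testis form, had 1 fragment (0.0695 FPKM). Of the 6 genes, 4 were at 1 FPKM or more, and the class held 34.5% of the summed FPKM of the clustered genes.

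H2B pairs with H2A in the nucleosome. The 18 H2B genes held 31.6% of the summed FPKM, with 10 genes at 1 FPKM or more and a median of 1.12 FPKM. After Hist1h2bc, Hist3h2ba, Hist1h2bg and Hist2h2be came Hist1h2bj at 4.11 FPKM (30 fragments) and Hist1h2bb at 2.24 FPKM (18 fragments), and the lowest above 0 was Hist1h2br at 0.401 FPKM (14 fragments). The H2B genes encoded 12 different proteins. Hist1h2bc, Hist1h2bg and Hist1h2be encoded the same protein and together held 50.6% of the FPKM of H2B, although Hist1h2be itself stood at 1.01 FPKM. Hist3h2ba and Hist2h2be each encoded a protein of their own, at 94.4% and 96.0% identity to the H2B made by the largest number of genes. That most shared protein, from 4 genes led by Hist1h2bj, held 9.25% of the FPKM of the class.

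H2A genes were lower. They held 8.08% of the summed FPKM (5.38% of the fragments) with 18 genes, 7 of them at 1 FPKM or more, and the median was 0.561 FPKM. The highest were Hist1h2ae at 4.59 FPKM (51 fragments), Hist1h2ao at 4.36 FPKM (33), Hist1h2ak at 2.58 FPKM (16), Hist1h2ai at 2.42 FPKM (15), Hist1h2ab at 2.41 FPKM (18) and Hist1h2ac at 1.35 FPKM (53). The lowest above 0 was Hist1h2ad with 1 fragment (0.111 FPKM). No gene stood apart: in all 12 neighbouring pairs in the order of H2A the intervals overlapped. The protein shared by 9 of the genes held 77.2% of the FPKM of H2A.

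H3 carries much of the lysine methylation and acetylation studied on chromatin. Its 12 clustered genes held 5.001% of the summed FPKM, the least of the 5 classes (2.96% in fragments), with 5 genes at 1 FPKM or more and a median of 0.867 FPKM. Hist1h3c stood at 2.82 FPKM (28 fragments), Hist1h3i at 2.62 FPKM (17), Hist1h3e at 2.05 FPKM (27), Hist1h3a at 1.78 FPKM (15), Hist1h3g at 1.55 FPKM (13) and Hist1h3d at 0.964 FPKM (19), and the lowest above 0 was Hist1h3f at 0.1005 FPKM (2 fragments). All 9 neighbouring pairs had overlapping intervals. The H3 genes encoded 3 proteins. The protein of 7 genes, Hist1h3c among them, held 49.8% of the FPKM of H3, and that of 4 genes, Hist1h3i among them, held 50.2%. The 2 proteins were 99.3% identical.

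The 13 H4 genes encoded 1 and the same protein, from coding sequences that were as little as 85.3% identical. Hist1h4i supplied 65.0% of the FPKM of H4 and was 6.39 times the next gene, Hist1h4m at 5.67 FPKM (36 fragments). Then came Hist1h4k at 3.66 FPKM (18), Hist1h4n at 2.505 FPKM (17), Hist1h4h at 1.62 FPKM (12) and Hist1h4c at 1.31 FPKM (17), and the lowest above 0 was Hist1h4a at 0.470 FPKM (4 fragments). Of the 11 neighbouring pairs, the intervals overlapped in 10, all except that of Hist1h4i and Hist1h4m. H4 held 20.8% of the summed FPKM (13.5% of the fragments), with 7 genes at 1 FPKM or more. The coding sequences of Hist1h4m and Hist1h4n were identical, so their split could not be read from coding fragments.

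The 10 genes listed at 0 were Hist1h2aa, Hist1h2ah, Hist2h2aa1, Hist2h2aa2 and Hist2h2ab of H2A, Hist1h2ba and Hist2h2bb of H2B, Hist2h3b and Hist2h3c1 of H3, and Hist1h4b of H4. A count of 0 allows up to 3 fragments, or 0.104 to 0.499 FPKM depending on the length of the gene. Hist1h2aa and Hist1h2ba, a testis-specific pair, lie beside each other and were the 2 members of their stretch of chromosome 13. On chromosome 3, 6 of the 10 clustered genes at 96219865 to 96270132 were at 0 and 1, Hist2h2be, was at 1 FPKM or more.

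The other genes on chromosome 13 fell into 3 stretches. The 18 genes at 21715763 to 21837530 had a median of 1.40 FPKM and 9 genes at 1 FPKM or more. The 5 genes at 22035164 to 22043676, with Hist1h4i, had a median of 1.46 FPKM, and the 29 at 23531050 to 23764406, with Hist1h1c, a median of 1.31 FPKM and 18 genes at 1 FPKM or more. Each of these 3 stretches held genes above and below 1 FPKM. On chromosome 11 both genes, Hist3h2ba and Hist3h2a, were above 1 FPKM, and the lone gene on chromosome 6, Hist4h4, stood at 0.974 FPKM.

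Near-identical copies share fragments. For each gene the share of 100-base windows of its transcripts found in the transcripts of no other gene, on either strand, was counted. How the submitters treated fragments that align to several places or overlap several genes is not given in the sources used here. For 39 genes at least 50% of windows were unique, and of these 24 were at 1 FPKM or more, with a median of 1.31 FPKM. For the 28 genes with fewer unique windows, 9 were at 1 FPKM or more, with a median of 0.467 FPKM. Of these 28 genes, 12 were H2A genes and none were H1 genes. The median share of unique windows was 99.6% in H1, 30.1% in H2A, 63.6% in H2B, 50.3% in H3 and 81.0% in H4. The part of shared sequence in the differences between classes was not tested. The 5 genes with no unique window (Hist2h2aa1, Hist2h2aa2, Hist2h2bb, Hist2h3b and Hist2h3c1) were all listed at 0. Their level cannot be told apart from that of the genes that hold the same windows, among them Gm20633, Gm20634 and Gm20628. Hist1h4m, Hist1h2ao and Hist1h4n were above 1 FPKM with 11.9%, 7.35% and 19.3% of windows unique, so a low share went with low and with moderate levels, but each gene at 10 FPKM or more had over 50%.

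**Figure D2:**
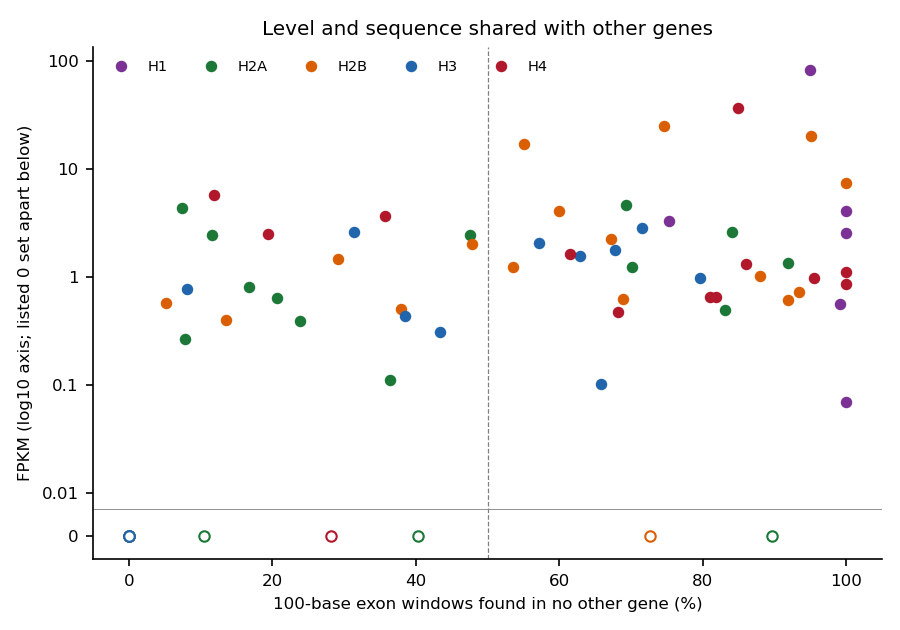
FPKM (log10 axis) of the 67 clustered histone genes against the share of their 100-base windows found in no other annotated gene, coloured by class. Open points are genes listed at 0, 5 of which lie on top of each other at 0% unique windows, and the dashed line marks 50%. The 5 genes at 10 FPKM or more lie to the right of that line.

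Overlap with other annotated genes was uneven between the classes. Every H2A gene shared exon bases with another gene, and 17 of the 18 did so with an annotated gene of 108 to 144 bases, nearly all of them listed as miRNA genes on the other strand. These short genes were all listed at 0. Elsewhere the overlap touched 6 genes of the other classes, for example 496 bases shared by Hist1h1e and Hist1h2be on the same strand. The 24 genes with any overlap had a median of 0.440 FPKM and 9 genes at 1 FPKM or more. The 43 without overlap had a median of 1.31 FPKM and 24 genes at 1 FPKM or more. Since 18 of the 24 are H2A genes, overlap and class cannot be told apart.

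Levels were then set beside the annotated 3′ ends. A transcript running over 100 bases past the stem-loop was annotated for 23 genes, of which 12 were at 1 FPKM or more and 4 at 10 FPKM or more. For another 23 genes the transcript ended within 100 bases of the stem-loop, and there too 12 were at 1 FPKM or more, but none at 10 FPKM or more, the highest being Hist1h4m at 5.67 FPKM. The medians were 1.01 and 1.24 FPKM, but 27 and 9 fragments, so the order turned without division by length. The 14 genes with AATAAA near an annotated end included 5 at 1 FPKM or more, with a median of 0.755 FPKM. The 53 without it included 28, with a median of 1.11 FPKM. Among the 53 are the 15 genes with fewer than 16 annotated bases after the stop codon, whose 3′ ends were cut short in the annotation. At 10 FPKM or more stood 2 of the 14 and 3 of the 53, and the median was 20 fragments with the signal and 13 without. The 14 genes held 119.58 of the summed 267.79 FPKM, of which 81.7 FPKM came from Hist1h1c. Hist1h1c, Hist3h2ba, Hist2h2be and Hist1h2ae had the signals shown above, while Hist1h4i, Hist1h2bc and Hist1h2bg had none of these letters in the last 60 bases.

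The annotated region after the stop codon ran from 200 to 2192 bases in the 6 highest genes. A region of 200 bases or more was annotated for 25 of the 67 genes in all, with a median of 1.01 FPKM and 27 fragments. The other 42 genes had a median of 0.788 FPKM and 6.5 fragments, and none of them was above 5.67 FPKM.

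Because FPKM divides by all exon bases, a long annotated end lowers the FPKM of a gene whose fragments lie mostly on its short coding part. Dividing the same fragments by the coding length gave a level over 2 times the FPKM for 21 of the 57 genes above 0. Hist2h3c1, whose exons are also over 2 times its coding length, had no fragments. On this coding-length scale 43 genes were at 1 or more and 7 at 10 or more. Genes in general rose too: the protein-coding median went from 0.5997 FPKM to 1.62, and that of the clustered genes from 0.974 FPKM to 2.42. The share of all protein-coding genes at these minima was not counted on this scale. Hist1h1c stood at 199, Hist1h4i at 84.5, Hist1h2bc at 75.3 and Hist2h2be at 50.2, so that Hist2h2be moved above Hist3h2ba (32.4) and Hist1h2bg (27.6). Hist1h2be moved from 1.01 FPKM to 11.8, Hist1h1d from 0.555 FPKM to 6.18 and Hist4h4 from 0.974 FPKM to 8.93. The change was 11.7-fold for Hist1h2be and 11.1-fold for Hist1h1d. Hist1h1e reached 9.60 on the coding-length scale, Hist1h2ac 8.54, Hist3h2a 6.77, Hist2h4 4.47, Hist1h3e 4.16, Hist1h4d 4.06 and Hist1h4c 3.45. Hist1h3d reached 2.93, Hist1h2bq 2.82, Hist1h2bh 2.66, Hist1h2br 2.19, Hist1h4j 1.62, Hist2h3c2 1.08 and Hist1h3f 0.308. The table holds no positions of fragments along a gene, so which of these scales is nearer to the transcript made was not tested.

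**Figure D3:**
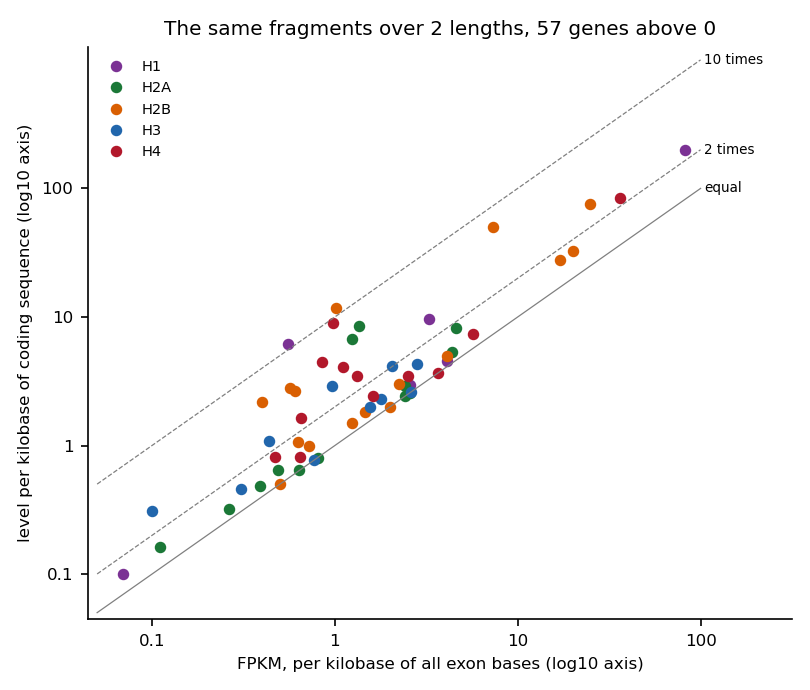
Level per kilobase of coding sequence against FPKM, which is per kilobase of all exon bases, for the 57 clustered histone genes above 0 (both axes log10), coloured by class. The solid line marks equal values and the dashed lines 2 and 10 times. Hist1h1c is the highest on both axes, and Hist1h2be and Hist1h1d lie above the line for 10 times.

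Promoters of the clustered genes carry letters typical of their class. In RefSeq sequences (GRCm38.p6) from 250 bases before to 50 bases after the start, available for 62 of the 67 genes, both strands were searched. CCAAT was in 85.5% of them and in 41.1% of 27025 genes. TATAAA was in 56.5% and 15.7%. The octamer ATTTGCAT, bound by the factor encoded by Pou2f1, was in 7 of 16 H2B and 7 of 18 H2A promoters, in none of the H1, H3 or H4 promoters and in 1.97% of all. H2A and H2B genes in divergent pairs share this region, so some of those matches are the same site. AAACACA, known as the H1 box, was in 5 of 6 H1 promoters and in 8.22% of all. CCAAT was in 3 of 12 H4 promoters and in every H1, H2A, H2B and H3 promoter searched. Matches of different motifs were counted separately and may share letters.

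Stretches from 4 promoters are shown because genes with the same letters stood at opposite ends of the order. They are chr13:23738689-23738707 (plus strand, Hist1h1c), chr13:23695691-23695709 (plus, Hist1h1t), chr13:23571335-23571368 (plus, Hist1h2bg) and chr13:23934239-23934326 (minus, Hist1h2ba), with the H1 box, the octamer and TATAAA in capitals. Hist1h1c at 81.7 FPKM and Hist1h1t at 0.0695 FPKM both held the H1 box, and Hist1h2bg at 17.0 FPKM and Hist1h2ba at 0 both held the octamer and TATAAA.
Hist1h1c: tgtaacAAACACAagttgg
Hist1h1t: gaaaagAAACACAaatgcc
Hist1h2bg: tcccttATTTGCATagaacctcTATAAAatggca
Hist1h2ba: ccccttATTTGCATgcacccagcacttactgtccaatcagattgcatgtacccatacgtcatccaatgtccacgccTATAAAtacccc

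Divergent H2A and H2B genes, whose starts face away from each other within 1000 bases, made 12 pairs. The H2B gene was the higher in 7 pairs and the lower in 4, and in 1 pair both were at 0. The counting intervals were apart in 7 pairs, with the H2B gene higher in 6 of them and the H2A gene in 1. Among those 6, the H2A gene had fewer unique windows than its partner in Hist1h2ag and Hist1h2bj (23.8% and 59.9%). So it had in Hist1h2ah and Hist1h2bk (10.5% and 29.2%), Hist1h2ad and Hist1h2bf (36.4% and 53.6%) and Hist2h2ac and Hist2h2be (83.1% and 100%). The H2A gene had more in Hist1h2ac and Hist1h2bc (91.9% and 74.6%) and Hist1h2ae and Hist1h2bg (69.3% and 55.1%). Per coding length and in fragments the H2B gene was higher in 8 pairs and the H2A gene in 3, since Hist1h2an and Hist1h2bp changed order. In the pair with the highest sum, Hist1h2ac stood at 1.35 FPKM and Hist1h2bc at 24.8 FPKM, with starts 251 bases apart. This was an 18.4-fold difference in FPKM and an 8.82-fold difference per coding length. Hist1h2ae and Hist1h2bg stood at 4.59 and 17.0 FPKM. Hist2h2ac and Hist2h2be stood at 0.487 and 7.30 FPKM, a 14.99-fold difference that was 77.3-fold per coding length, with 4 fragments on Hist2h2ac. The order was the other way round for Hist1h2ao at 4.36 FPKM and Hist1h2bq at 0.566 FPKM, 7.70-fold in FPKM and 1.89-fold per coding length. Both have a copy with the same coding sequence, and 7.35% and 5.16% of their windows were unique. Hist1h2ak at 2.58 FPKM and Hist1h2bn at 1.996 FPKM differed by less than their counting intervals. Since each H2A gene of these pairs also overlaps another annotated gene, the part of counting in these differences was not tested.

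**Figure D4:**
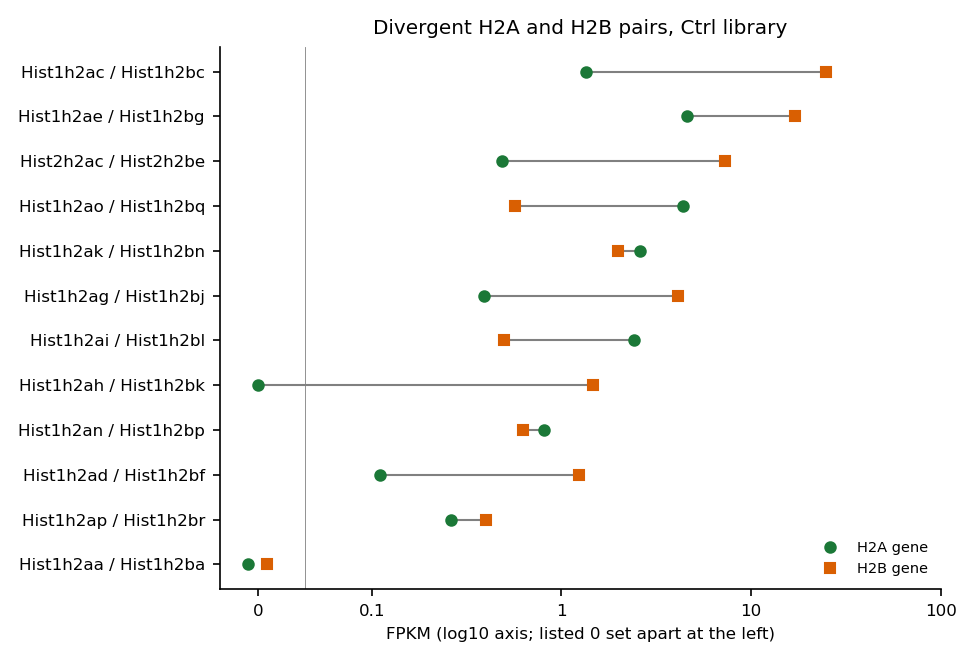
FPKM (log10 axis) of the H2A gene (green circle) and the H2B gene (orange square) of each of 12 divergent pairs, joined by a line and ordered by their sum. Genes listed at 0 are set apart at the left. The H2B gene lies to the right in 7 pairs and the H2A gene in 4.

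Replacement histone genes in the same library were far higher for H2A and H3. H3f3b stood at 361 FPKM and H3f3a at 209 FPKM, and both encode the H3 laid down outside replication. H3f3b was 128 times the highest clustered H3 gene, Hist1h3c. H2afz, a gene for the promoter-associated variant H2A.Z, stood at 270 FPKM, 58.8 times Hist1h2ae, and H2afx, whose protein is phosphorylated at DNA breaks, at 197 FPKM. H2afj stood at 52.9 FPKM, H2afv at 49.7 FPKM, the macroH2A gene H2afy at 49.1 FPKM, the centromeric Cenpa at 37.8 FPKM and H2afy2 at 0.175 FPKM. For H1 the order was the reverse: Hist1h1c was 4.05 times H1f0, the linker histone of resting cells, at 20.2 FPKM, and H1fx stood at 1.30 FPKM. The clustered genes held 81.1% of the summed H1 level but 3.38% of that of H2A and 2.16% of that of H3. The H1 share rested on Hist1h1c and was 33.0% without it, an alternative chosen after seeing the data. Per coding length the shares were 75.2% for H1, 1.49% for H2A and 0.422% for H3. The median share of unique windows was 99.6% in clustered H1, 30.1% in clustered H2A and 50.3% in clustered H3 genes. It was not counted for the replacement genes. Whether poly(A) RNA was selected is not stated. The part of shared sequence and of such a step in these differences was not tested.

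Genes that act on histone mRNA and protein were detected. In the list for histone transcription, mRNA processing and decay, 17 of 19 genes were at 1 FPKM or more, with a median of 13.1 FPKM. The highest were Srrt, a partner of the cap-binding complex, at 44.6 FPKM, the decay helicase Upf1 at 38.1 FPKM and the stem-loop binding protein Slbp at 30.4 FPKM. Zfp473, a zinc-finger cofactor of the cleavage step, was lowest above 0 at 0.297 FPKM, and Rnu7, the gene of U7 snRNA, was listed at 0. All 16 histone chaperones were at 1 FPKM or more, with a median of 31.3 FPKM, led by Npm1 at 160 FPKM, the H2A.Z chaperone Anp32e at 102 FPKM and the FACT subunit Ssrp1 at 85.5 FPKM, and lowest in Atrx at 3.002 FPKM. The 17 genes of S phase and mitosis ranged from 13.1 to 189 FPKM with a median of 54.9 FPKM, and 1 clustered histone gene, Hist1h1c, stood above that median.

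Other RNAs that lack a poly(A) tail were low or at 0. Of 12 annotated genes in that list, 1 was at 1 FPKM or more, Rn7sk at 1.72 FPKM. Terc stood at 0.899 FPKM and the other 10 were listed at 0. Several of these, Rn7sk among them, belong to the abundant short RNAs of most cells. Rmrp was annotated as overlapping entries, each listed at 0 and each counted among these 10. Rn7sl1, also in the list, was not found under that symbol. Sequence shared with other genes was not counted for this list. Rny1, Rny3, Rnu7, Rnu11 and Rnu12 are so short that 3 fragments would exceed 1 FPKM, up to 3.07 FPKM for Rnu7. A 0 on such genes therefore says little. The labels give total RNA as the molecule and do not say whether poly(A) RNA was selected, and the part of such a step in the level of the clustered histone genes was not tested.

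**Figure D5:**
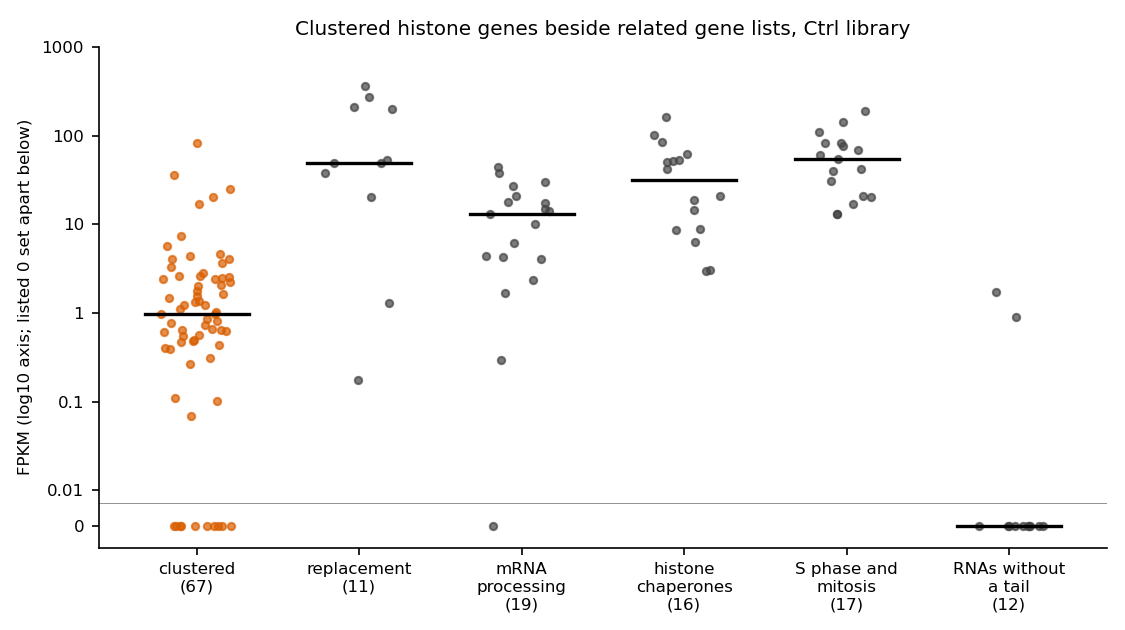
FPKM (log10 axis) of single genes in the Ctrl library, for the 67 clustered histone genes and 5 related lists, with the number of genes in brackets and the median as a black line. Points below the grey line are listed at 0, and points are spread sideways only to be seen. The median is 0.974 FPKM for the clustered genes, 49.7 FPKM for replacement histones, 13.1 FPKM for mRNA processing, 31.3 FPKM for chaperones, 54.9 FPKM for S phase and mitosis and 0 for RNAs without a tail.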

How the data were processed

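RNA of sorted c-kit+ BM cells from Ctrl mice was extracted with TRIzol and sequenced on an Illumina instrument. The deposited values are FPKM, computed by the authors. The submitters' processing notes name HISAT2 2.0.5, featureCounts 1.5.0-p3 and mm10, which is the assembly GRCm38. The library kit, strand setting and treatment of multiply aligned reads are not given in the sources used here.

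Genes were matched by identifier to GENCODE M21, which lacked 37 of 54532. FPKM times exon length gave whole multiples of a common step, within 0.01, for 20545 of 21313 genes above 0 (96.4%), and these were taken as fragments, 17113323 in all. Wilson intervals (95%) and the limit for a count of 0 (3 fragments) cover counting error only. With 1 library no test was made. Analyses used Python 3.11.15, pandas 2.3.3, numpy 2.4.6, scipy 1.17.1 and Biopython 1.88. Only the recovery of fragments and the count of unique windows were tested on simulated data.

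The members and gene lists were chosen with earlier results of these data known. Named genes are all of H1, the 6 highest and the lowest above 0 of each other class, those at 0, all replacement genes, the extremes of the processing and chaperone lists, the 5 divergent pairs with the highest sum, and genes whose level per coding length differs over 2 times. Others are named where a sequence or a count turns on them.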

Additional observations from a re-analysis of the deposited data

How the results depend on the processing

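The count of 33 clustered genes at 1 FPKM or more became 56 at 0.1 FPKM and 5 at 10 FPKM. Those with 10 fragments or more were 39 genes. Of all protein-coding genes, 46.8% were at 1 FPKM or more and 21.2% at 10 FPKM or more. Their share was not counted at 0.1 FPKM or at 10 fragments, so the counts there have no background. The median of 0.974 FPKM was 1.06 without the 10 most abundant genes and 0.993 without mitochondrially encoded genes. It was 2.42 per coding length, 15 fragments without division by length, and 1.31 FPKM both for genes with at least 50% unique windows and for the genes that overlap no other gene, a choice made after seeing the data. The ratio to the protein-coding median, 1.62 in FPKM, was 1.49 per coding length but fell below 1, to 0.429, in fragments, where the short histone genes are not scaled up.

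The share of H1 in the summed level was 35.4% per coding length, 49.2% in fragments and 8.98% without the highest gene of each class. H2A was 6.32% per coding length, 5.38% in fragments and 14.5% without the highest genes. H2B was 35.1%, 29.0% and 51.0%, and H3 was 3.33%, 2.96% and 8.99%, in the same order. H4 was 19.9% per coding length, 13.5% in fragments and 16.6% without the highest genes. Without Hist1h1c and the other highest genes, H2B therefore led the classes. The clustered share of H1 was 75.2% per coding length, 76.9% in fragments and 33.0% without Hist1h1c, the last chosen after seeing the data, while that of H2A was 1.49% per coding length and 1.22% in fragments and that of H3 0.422% and 0.423%.

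No paired analysis was possible because there is 1 library. It holds no spread between mice, so the intervals understate the error, and genes with few fragments are ordered only loosely. Shared sequence, overlapping annotation and 3′ ends cut short in the annotation limit single levels most in H2A and in the genes on chromosome 3.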

Other observations

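The rule takes protein-coding genes only, and 3 further genes with these symbols are annotated as pseudogenes. Hist1h2aj, an H2A pseudogene on chromosome 13, stood at 0.900 FPKM with 5 fragments, and Hist3h2bb-ps on chromosome 11 at 0.954 FPKM with 7 fragments, both close to the median of the clustered genes. Hist1h2al was listed at 0.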
